A study of Mus musculus with 4 samples.

Results

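A set of 6 transcripts used to recognise endoderm in the mouse embryo was followed across 4 populations of cultured progenitor cells: the transcription factor genes Sox17, Foxa1, Gata4, Gata6 and Hhex, and Spink1, which encodes a secreted inhibitor of trypsin. The genes were chosen by name, and all 6 of 6 were found among the 27998 genes of the single-cell count table. Each was described by its level, by the share of cells that held it, and by its co-detection with Foxa2 and with T (Brachyury) in each library.

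Definitive endoderm leaves the primitive streak alongside mesoderm, and Sox17 is a main regulator of it. Foxa1 and Foxa2 are related forkhead factors that act early in gut formation, and Foxa2 also marks the node and notochord, where T is expressed as well. Gata4 and Gata6 act in endoderm, in the extraembryonic endoderm and in heart mesoderm, and Hhex marks anterior endoderm and also blood and vessel precursors.

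Droplet single-cell RNA-seq was made from cells of the E14Tg2a mouse embryonic stem cell background, with 8700 cells loaded per library and 1 library per population. ES-NMP cells are neuromesodermal progenitor-type cells made from embryonic stem cells by 2 days in N2B27 medium and then 24 h with 3 µM CHIR99021, an inhibitor of GSK3 that activates Wnt signalling. Epi-CE cells are caudal epiblast-type cells made from epiblast stem cells that had been kept in 12 ng/ml FGF2 and 25 ng/ml activin A; activin A was then withdrawn, FGF2 was given at 20 ng/ml, and 3 µM CHIR99021 was added at day 3. Epi-CE-T cells came from a line with a Brachyury reporter (Bra:GFP) given that protocol, from which GFP-positive cells were sorted at 72 h, so that line and sort cannot be told apart in any comparison with Epi-CE. Epi-NMP cells were Epi-CE cells replated for 2 days with 20 ng/ml FGF2 and 3 µM CHIR99021.

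The cells that the submitters' cell table marks as used numbered 3116 for ES-NMP, 2386 for Epi-CE, 2109 for Epi-CE-T and 1111 for Epi-NMP. Their median depth was between 19189 and 22613.5 unique molecular identifiers (UMIs, 1 per captured transcript), and no cell had under 8011. In Epi-NMP 57.7% of barcodes were not marked as used, against 3.24% to 5.23% in the others. Over the libraries, 84 used cells carried a barcode that a used cell of another library also carried. The library labelled T-positive did not have the highest T: its level was 382.1 UMIs per 1000000 UMIs of the library (CPM), against 430.5 in Epi-CE, and 82.6% against 88.6% of cells held a T UMI. With 1 library per population no difference between populations has a replicate check, so no test was made. The 95% intervals below (exact Poisson for levels, exact binomial for ratios and shares) cover counting error only.

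The members did not move together. Foxa1 was higher in the 3 libraries of epiblast stem cell origin than in ES-NMP and highest in Epi-CE-T, Gata4 was highest in Epi-CE, Gata6 in Epi-NMP, Spink1 in Epi-CE-T, and Sox17 was higher in ES-NMP and Epi-CE than in the other two. Hhex differed by less than 1.5-fold in all 4 comparisons made. Of the 6 members, 2 were at least 1.5-fold higher and 0 lower in Epi-CE than in ES-NMP, where 21.1% and 16.2% of all genes with 50 UMIs or more were. In Epi-NMP over ES-NMP, 3 were higher and 1 lower, beside 16.0% and 18.4% of all genes. In Epi-NMP over Epi-CE, 2 were higher and 1 lower, beside 14.9% and 22.7%. In Epi-CE-T over Epi-CE, 3 were higher and 2 lower, beside 18.1% and 13.1%. The members share their libraries, and with 6 genes these counts describe the members only.

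**Figure D1:**
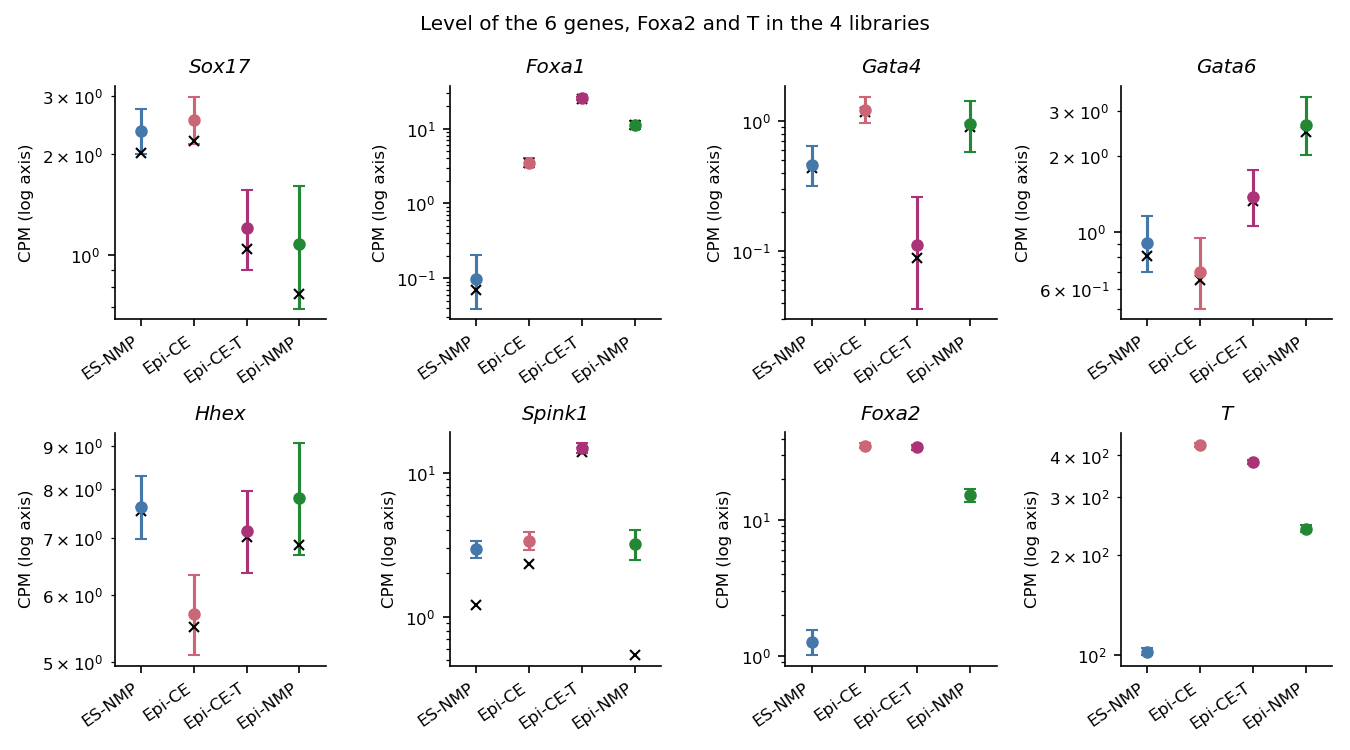
Level of each gene in each library, in CPM on a log axis. Circles are library values with 95% Poisson intervals and crosses, for the 6 members, the value without the 1 cell richest in that gene. Foxa1 was lowest in ES-NMP (0.0978) and highest in Epi-CE-T (25.3), and the Spink1 value of Epi-NMP fell from 3.19 to 0.541 without 1 cell.

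Sox17 was rare everywhere and concentrated in few cells. Its level was 2.35 CPM (95% interval 2.01 to 2.73; 168 UMIs) in ES-NMP, 2.54 CPM (2.15 to 2.98; 149 UMIs) in Epi-CE, 1.20 CPM (0.902 to 1.57; 54 UMIs) in Epi-CE-T and 1.08 CPM (0.691 to 1.60; 24 UMIs) in Epi-NMP. By level, ES-NMP and Epi-CE were the high pair and Epi-CE-T and Epi-NMP the low pair, and within each pair the intervals overlapped. In ES-NMP 5 cells were enough to reach 50% of the Sox17 UMIs, in Epi-CE 7, in Epi-CE-T 5 and in Epi-NMP 2. The intervals of level and ratio count each UMI as independent, and so understate the error from sampling cells. The level in Epi-CE-T was 2.12-fold lower than in Epi-CE (1.54 to 2.95), and that in Epi-NMP was 2.36-fold lower than in Epi-CE (1.52 to 3.79) and 2.18-fold lower than in ES-NMP (1.42 to 3.49). Sox17 is annotated on chromosome 1 at 4490931 to 4497354 (minus strand, GRCm38) and overlaps Gm37587 on the opposite strand; whether the counting used strand is not given in the sources used here.

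A Sox17 UMI was found in 29 ES-NMP cells, 36 Epi-CE cells, 17 Epi-CE-T cells and 8 Epi-NMP cells. To compare shares at 1 depth, every cell was thinned at random to 8000 UMIs, and the shares were then 0.642%, 1.05%, 0.427% and 0.450% in the same order, against 0.931%, 1.51%, 0.806% and 0.720% before thinning. In the cluster of 672 ES-NMP cells with naive pluripotency genes, 1 cell (0.149%) held a Sox17 UMI after thinning, at a median depth before thinning of 22798 UMIs against 22066 in its library. Cells with 3 or more Sox17 UMIs, a threshold chosen after the values were seen, held 86.8% of all Sox17 UMIs, and the richest cell held 23.

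**Figure D2:**
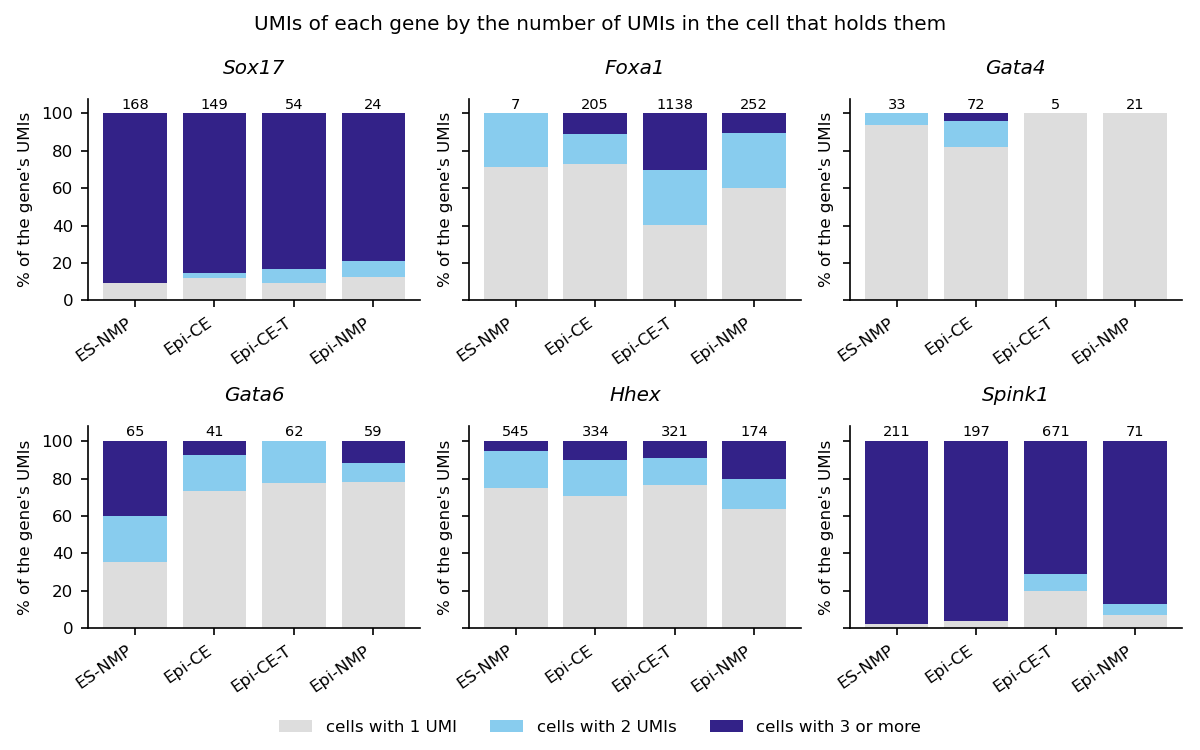
Percentage of each gene's UMIs that lay in cells with 1, with 2, and with 3 or more UMIs of it, by library, with the number of UMIs above each bar. Between 79.2% and 90.5% of Sox17 UMIs and between 71.2% and 97.6% of Spink1 UMIs lay in cells with 3 or more, against 0 to 4.17% for Gata4 and 5.32% to 20.1% for Hhex.

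There were 43 such cells, 0.493% of all (95% interval 0.357% to 0.664%): 13 in ES-NMP, 16 in Epi-CE, 10 in Epi-CE-T and 4 in Epi-NMP. They made up 0.417%, 0.671%, 0.474% and 0.360% of cells in the same order, and the 4 intervals overlapped. The high and low pairs seen in level were not seen in these shares. The 43 cells are described here beside all other cells, with no test, because Sox17 chose them. Summed over the 4 libraries, all 8 definitive endoderm markers were at 5 CPM or more and at least 2-fold higher in them. This did not hold in each library: in Epi-CE-T Krt8 was at 313.0 against 273.2 CPM and Cer1 and Foxa3 had no UMI, and in Epi-NMP Cer1, Cxcr4, Foxa3 and Trh had none. Krt18, Cldn6 and Epcam were at least 2-fold higher in all 4. These 3 markers and Krt8 were not particular to the Sox17-rich cells. They were also raised in cluster 7, which held 477 Epi-CE cells, 1 of them Sox17-rich. Trh was found in 38.1% of the other ES-NMP cells. Krt8 and Krt18, keratins of simple epithelia, stood at 1357 against 204.1 CPM and at 1695 against 227.1 CPM. A few cells carried much of this, since 3 cells held 336, 286 and 113 of the 1341 Krt8 UMIs. Cldn6, a tight junction gene of embryonic epithelia, stood at 636.5 against 46.4 CPM and was present in 41 of the 43 cells. Epcam, an epithelial adhesion gene, was in 43 of 43 cells, and its level was 447.3 against 146.4 CPM. Cer1, a secreted antagonist of Nodal, BMP and Wnt made by anterior endoderm, was at 14.2 against 0.565 CPM, from 4 cells. Foxa3, the third gene of the Foxa family, was at 10.1 against 0.901 CPM.

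Some markers of other classes were higher as well. The summed level was 133.6 against 19.6 CPM for 6 trophoblast markers (Gata3 and Krt7 at least 2-fold higher), 351.1 against 86.5 CPM for 5 smooth muscle markers (Tagln, Cnn1 and Myl9) and 82.0 against 25.5 CPM for 7 neural markers (Pax3 and Irx3), beside 4836 against 686.1 CPM for definitive endoderm. Of the endoderm sum in the Sox17-rich cells, Krt8 and Krt18 gave 1357 and 1695 CPM. By library, the trophoblast sum was higher in each. The smooth muscle sum was lower in the Sox17-rich cells of Epi-CE-T (3.82 against 15.4 CPM) and higher in those of the other libraries. The neural sum was lower in those of ES-NMP (22.0 against 31.1 CPM) and higher in the others. Of 6 primed epiblast markers Otx2 and Fgf5 were higher, with the sum at 255.0 against 484.2 CPM. Their part in the endoderm values was not tested. Of 10 extraembryonic endoderm markers, 7 had no UMI in the 43 cells (Afp, Ttr, Apoa1, Apob, Cubn, Hnf4a and Sox7), and 1, Pth1r, was at least 2-fold higher. Of 7 node or notochord markers 1 was higher over the libraries together, Pkd1l1, with Noto at 0 and Shh at 5.06 against 20.1 CPM. By library the sum of the 7 was 36.6 against 7.39 CPM in ES-NMP and 53.3 against 51.2 CPM in Epi-CE. It was 91.6 against 219.7 CPM in Epi-CE-T and 51.8 against 43.6 CPM in Epi-NMP. In ES-NMP Chrd was 13.7-fold (2.75 to 42.2) and Nog 8.33-fold (1.69 to 25.1) higher, from 3 UMIs each. None of 6 blood or endothelium markers was higher, and Kdr, Tal1 and Tek were at 0. Of 9 paraxial mesoderm markers 0 were higher and 4 were at least 2-fold lower, with the sum at 29.3 against 166.0 CPM. Of 10 caudal epiblast markers, 7 were at least 2-fold lower, and 1, Cyp26a1, was higher; the lower ones included Nkx1-2 at 9.11 against 115.0 CPM and Cdx2 at 10.1 against 164.6 CPM.

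**Figure D3:**
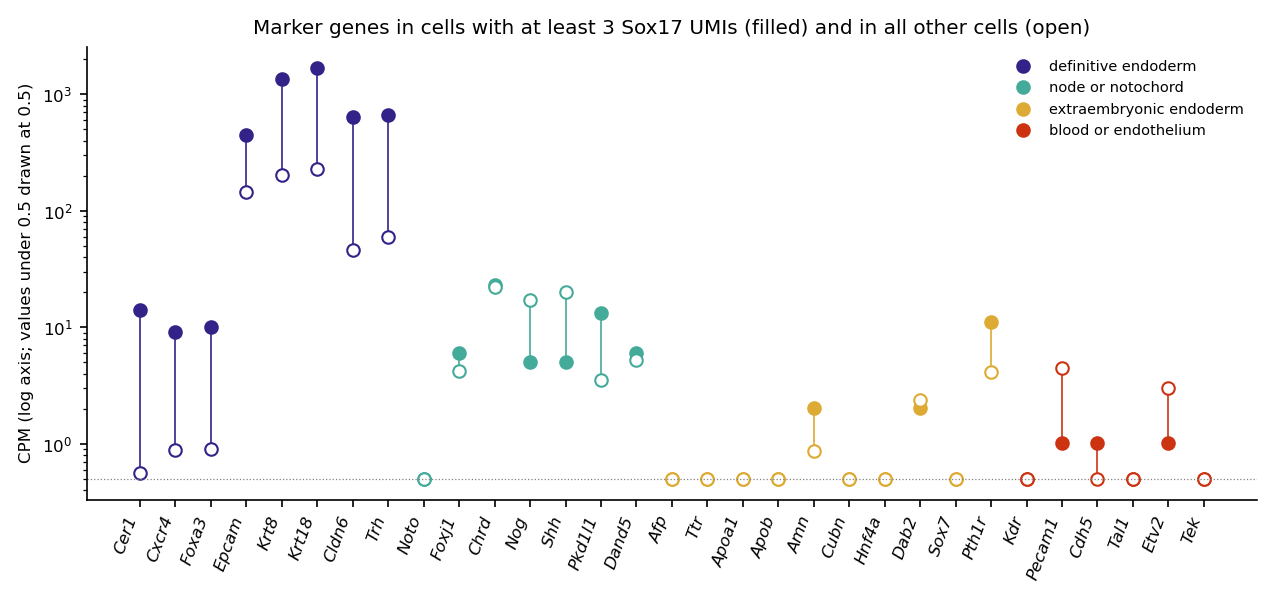
Level (CPM, log axis, values under 0.5 drawn at 0.5) of marker genes of 4 classes in the 43 cells with at least 3 Sox17 UMIs (filled circles) and in all other cells (open circles), over all libraries. All 8 definitive endoderm markers were higher in the Sox17 cells, and 7 of 10 extraembryonic endoderm markers had no UMI there.

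The genes with the largest ratio between these cells and the rest, with the 4 libraries weighted equally, were Spink1, Gpx2, Flt1, Myl3, Krt7, Cldn7, Cpn1, Foxq1 and Cldn6. Gpx2, a glutathione peroxidase of gut epithelium, was at 69.6, 58.9, 103.05 and 165.9 CPM in the Sox17-rich cells, with the libraries in the order used above, against 4.45, 0.154, 0.447 and 0.135 CPM in the other cells. Trh, which encodes thyrotropin-releasing hormone, was not shared by all 4: it reached 1509 CPM in the Sox17 cells of ES-NMP and had no UMI in those of Epi-NMP. Some genes of the anterior streak were higher in the sum of the libraries, with Otx2 at 50.6 against 4.32 CPM and Lhx1 at 50.6 against 4.73 CPM. Gsc was at 36.4 against 3.36 CPM and Eomes at 19.2 against 1.66 CPM. Otx2 is also 1 of the primed epiblast markers above. Mixl1, another streak gene, was at 30.4 against 11.2 CPM, with 24 of its 30 UMIs from ES-NMP. In Epi-CE it was at 14.0 against 15.5 CPM, and in the Sox17-rich cells of Epi-CE-T it had no UMI. Gsc had no UMI in the Sox17-rich cells of Epi-CE-T, where the other cells were at 6.66 CPM, nor in those of Epi-NMP, and Eomes had none in those of Epi-NMP. Their median depth was 20820 UMIs against 21306 in the others, 4 of the 43 were among the deepest 10% of their library, and 1 carried a barcode found in another library.

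Most Sox17-rich cells held Foxa2, and about as many lacked as held T. Foxa2 was found in 29 of the 43 cells and T in 21 of 43, without thinning. Over all Sox17-positive cells at 8000 UMIs, T was found in 4 of 20 ES-NMP cells (20.0%, 95% interval 5.73% to 43.7%), 15 of 25 Epi-CE cells (60.0%, 38.7% to 78.9%), 2 of 9 Epi-CE-T cells (22.2%, 2.81% to 60.0%) and 1 of 5 Epi-NMP cells (20.0%, 0.505% to 71.6%). Among the Sox17-negative cells of the same libraries T was found in 33.2%, 78.9%, 74.7% and 52.6%. At this depth the double-positive cells numbered 0.603, 0.762, 0.298 and 0.381 times the product of the separate shares, with an interval wholly below 1 in Epi-CE-T alone (upper bound 0.806). Without thinning the ratios were 1.16, 0.877, 0.712 and 0.581, so the direction turned in ES-NMP, where 16 of 29 Sox17-positive cells held T (55.2%, 35.7% to 73.6%) against 47.6% of the others. Foxa2 was found in 4 of 20, 6 of 25, 5 of 9 and 2 of 5 Sox17-positive cells, which is 20.8, 1.22, 2.83 and 3.93 times the product. In ES-NMP, where 0.84% of Sox17-negative cells held Foxa2, the interval of that ratio ran from 5.96 to 45.3, in Epi-CE-T from 1.08 to 4.40, and in the other two it reached below 1. Without thinning the ratios were 17.1, 1.31, 2.12 and 3.02. Of 9 Sox17-positive Epi-CE-T cells, 1 held both Foxa2 and T.

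**Figure D4:**
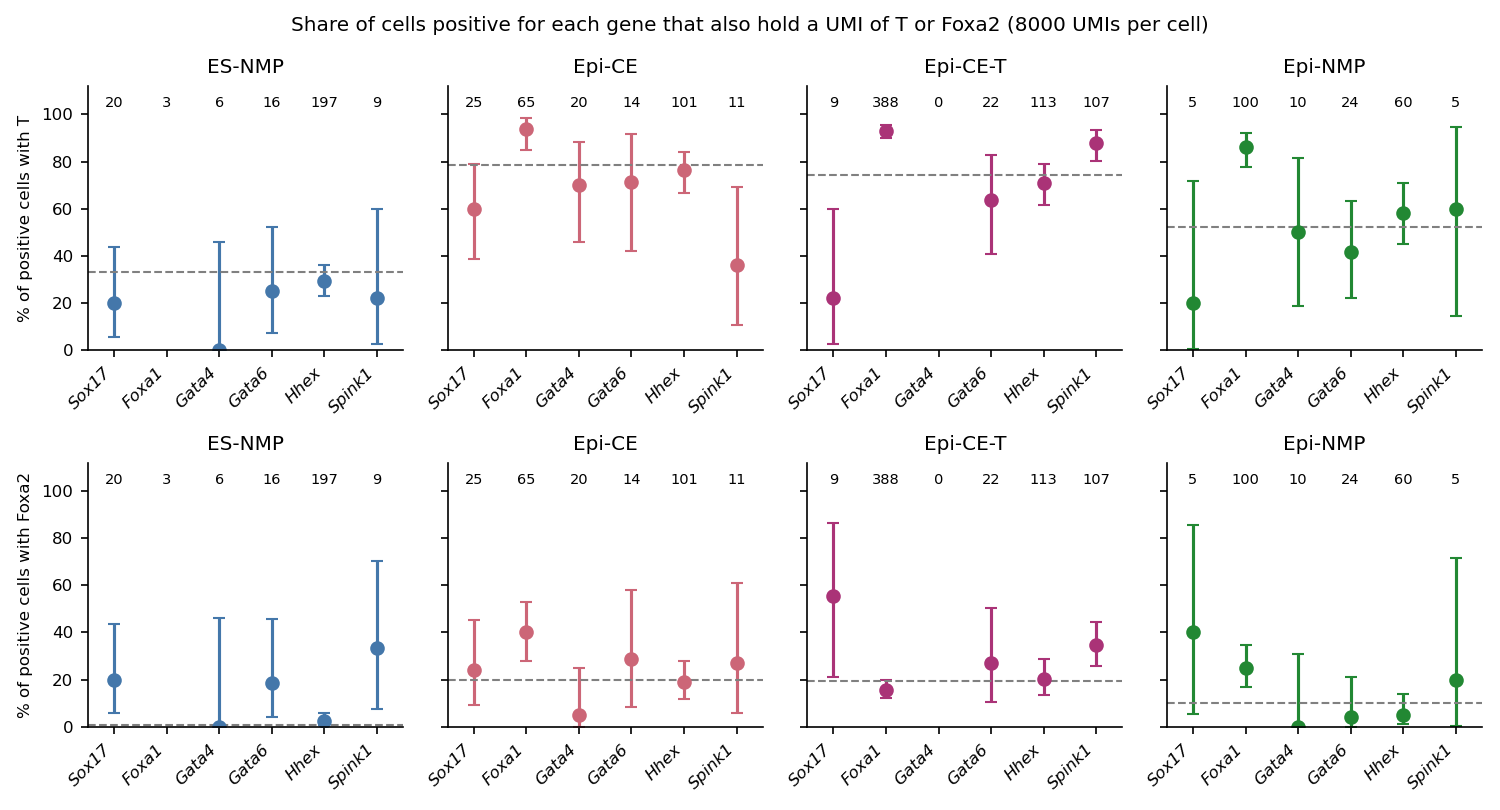
Percentage of cells positive for each member that also held a UMI of T (top) or Foxa2 (bottom), per library, with every cell thinned to 8000 UMIs, exact binomial 95% intervals and the number of positive cells above; under 5 positive cells no point is drawn. The dashed line is the percentage over all cells of the library. Foxa1 points lay above the T line in all libraries but ES-NMP, which had too few positive cells, and Sox17 points lay below it in all 4 libraries at this depth, which did not hold for ES-NMP without thinning.

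The Sox17-rich cells of different libraries partly shared clusters. The clusters were made without the 6 members, Foxa2 and T, so the members can be read across them. In ES-NMP 9 of the 13 Sox17-rich cells lay in cluster 5, which held 129 of the 168 Sox17 UMIs from 138 of the 3116 cells. Cluster 5 had raised paraxial mesoderm markers (Tbx6, Dll1, Dll3, Hes7 and Meox1) and was led by Tbx6, Lmo1 and Cited1. Mixl1, Gsc and Lhx1 were also among its leading genes. Only 15 Epi-CE cells fell in that cluster, and 8 of the 16 Sox17-rich Epi-CE cells were among them, with 3 more in cluster 17. In Epi-CE-T 7 of 10 lay in cluster 16 and 3 in cluster 17, both with node or notochord markers. Of the 4 in Epi-NMP, 2 lay in cluster 17, which held 570 Epi-CE-T cells and 2 Epi-NMP cells. Cluster 6 (led by Anxa1, Acta2 and Tagln, with Krt8, Krt18 and Cldn6 among its raised markers) held 2 of those of ES-NMP, 1 of Epi-CE and 1 of Epi-NMP.

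Spink1 went with Sox17 in 3 libraries and was spread beyond it in Epi-CE-T. Its level was 2.95 CPM (2.56 to 3.37) in ES-NMP, 3.36 CPM (2.91 to 3.86) in Epi-CE, 14.9 CPM (13.8 to 16.1) in Epi-CE-T and 3.19 CPM (2.49 to 4.02) in Epi-NMP. Epi-CE-T stood above the other 3, at 4.44-fold Epi-CE (3.78 to 5.23), and the others overlapped. These sums rest on few cells: 1 cell of 125 UMIs held 59.2% of the ES-NMP count and 1 of 59 UMIs held 83.1% of the Epi-NMP count. Without the richest cell the levels were 1.20, 2.34, 13.9 and 0.541 CPM, and Epi-NMP then lay 2.23-fold below ES-NMP and 4.33-fold below Epi-CE, which adds 1 member to those counted as lower in each comparison. Positive cells numbered 12, 16, 215 and 9 before thinning, and after it they made up 0.289%, 0.461%, 5.07% and 0.450% of cells.

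At 8000 UMIs Spink1 was found in 7 of 20 Sox17-positive ES-NMP cells (35%, 15.4% to 59.2%), 7 of 25 in Epi-CE (28.0%, 12.1% to 49.4%), 4 of 9 in Epi-CE-T (44.4%, 13.7% to 78.8%) and 3 of 5 in Epi-NMP (60.0%, 14.7% to 94.7%). In Sox17-negative cells it was found in 0.065%, 0.169%, 4.90% and 0.181%. The ratios to the product were 121, 60.7, 8.76 and 133, and without thinning 62.7, 37.3, 4.62 and 61.7. Seen from Spink1, 7 of 9 positive ES-NMP cells held Sox17, while in Epi-CE-T 4 of 107 did. Outside the Sox17-rich cells the Spink1 level was 0.0701 CPM in ES-NMP, 1.27 CPM in Epi-CE, 14.0 CPM in Epi-CE-T and 0.27 CPM in Epi-NMP. In Epi-CE 1 cell held 60 of the 74 UMIs behind this value.

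The Spink1-positive cells of Epi-CE-T were mostly T-positive. T was found in 94 of the 107 (87.9%, 80.1% to 93.4%) against 73.8% of Spink1-negative cells, and Foxa2 in 37 of 107 (34.6%, 25.6% to 44.4%) against 18.8%. In Epi-CE the order for T was opposite, with 4 of 11 positive cells (36.4%, 10.9% to 69.2%) against 78.9% of negative cells, or 10 of 16 against 88.8% without thinning. In cluster 17 (led by Vtn, Pomc and Tmem163) 8.07% of Epi-CE-T cells held Spink1, in cluster 16 (led by Samd3, Pomc and Shh) 7.07%, and in cluster 18 (led by Tgm2, Col2a1 and Cd36) 3.54%. In the T-poor cluster 12 it was 0.494%, with a median depth of 28747 UMIs.

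Foxa1 varied most between libraries. It had 7 UMIs in ES-NMP (0.0978 CPM, 0.0393 to 0.202), 205 in Epi-CE (3.49 CPM, 3.03 to 4.01), 1138 in Epi-CE-T (25.3 CPM, 23.8 to 26.8) and 252 in Epi-NMP (11.3 CPM, 9.97 to 12.8). The 4 intervals did not overlap. Foxa1 was 35.7-fold higher in Epi-CE than in ES-NMP (17.0 to 89.98) and 116-fold higher in Epi-NMP than in ES-NMP (55.4 to 291). It was 3.24-fold higher in Epi-NMP than in Epi-CE (2.68 to 3.91) and 7.24-fold higher in Epi-CE-T than in Epi-CE (6.23 to 8.44). Its relative Foxa2 did not follow that order: Foxa2 stood at 1.26, 35.4, 34.3 and 15.3 CPM, 2.32-fold lower in Epi-NMP than in Epi-CE (2.07 to 2.61) and 0.969 times Epi-CE in Epi-CE-T (0.907 to 1.03). Foxa1 thus rose from Epi-CE to Epi-NMP by these counts while Foxa2 and T fell, T by 1.79-fold (1.74 to 1.84).

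At 8000 UMIs Foxa1 was found in 0.0963% of ES-NMP cells, 2.72% of Epi-CE cells (2.11% to 3.46%), 18.4% of Epi-CE-T cells (16.8% to 20.1%) and 9.0% of Epi-NMP cells (7.38% to 10.8%), against 0.193%, 7.25%, 34.5% and 17.7% unthinned. In the naive pluripotency cluster of ES-NMP 0 of 672 cells held it; a limit of 3 counts allows up to 0.446% of cells with a UMI at this depth (exact binomial upper bound 0.547%), which is no limit on expression. Unlike Sox17, it was spread over many cells: the richest cell held 4 UMIs in Epi-CE, 10 in Epi-CE-T and 4 in Epi-NMP, and 71, 212 and 71 cells were needed to reach 50% of its UMIs.

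Foxa1-positive cells held T more often than the rest. T was found in 61 of 65 Foxa1-positive Epi-CE cells (93.8%, 85.0% to 98.3%) against 78.3% of Foxa1-negative cells. In Epi-CE-T it was found in 361 of 388 (93.04%, 90.04% to 95.4%) against 70.3%, and in Epi-NMP in 86 of 100 (86.0%, 77.6% to 92.1%) against 49.2%. The double-positive cells numbered 1.19, 1.25 and 1.64 times the product of the shares, and the 3 intervals lay above 1. ES-NMP had 3 Foxa1-positive cells, too few to read. The T level was also higher in the Foxa1-positive cells, at 684.6 against 448.4 CPM in Epi-CE, 631.8 against 404.9 CPM in Epi-CE-T and 673.8 against 255.9 CPM in Epi-NMP.

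Co-detection of Foxa1 with Foxa2 was above the product in Epi-CE and Epi-NMP, and no such excess was seen in Epi-CE-T. Foxa2 was found in 26 of 65 Foxa1-positive Epi-CE cells (40.0%, 28.0% to 52.9%) against 19.1% of negative cells, and in 25 of 100 in Epi-NMP (25.0%, 16.9% to 34.7%) against 8.70%. In Epi-CE-T it was found in 61 of 388 (15.7%, 12.2% to 19.7%) against 20.5%. The ratios to the product were 2.03 in Epi-CE, 2.46 in Epi-NMP and 0.801 in Epi-CE-T, whose interval (0.624 to 1.01) reached 1. Without thinning they were 1.55, 1.69 and 0.973. The 3 clusters that held most Epi-CE-T cells differed in the pair: in cluster 18, 33.8% of cells held Foxa1 (29.7% to 38.1%) and 9.82% Foxa2 (7.38% to 12.7%), in cluster 16 the shares were 22.6% and 26.3%, and in cluster 17 they were 15.6% and 33.3%. T was found in 98.0%, 87.6% and 88.2% of these clusters' cells. Cluster 12 held 405 Epi-CE-T cells, of which 19.8% held T, 0.741% Foxa1 and 7.41% Foxa2.

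**Figure D5:**
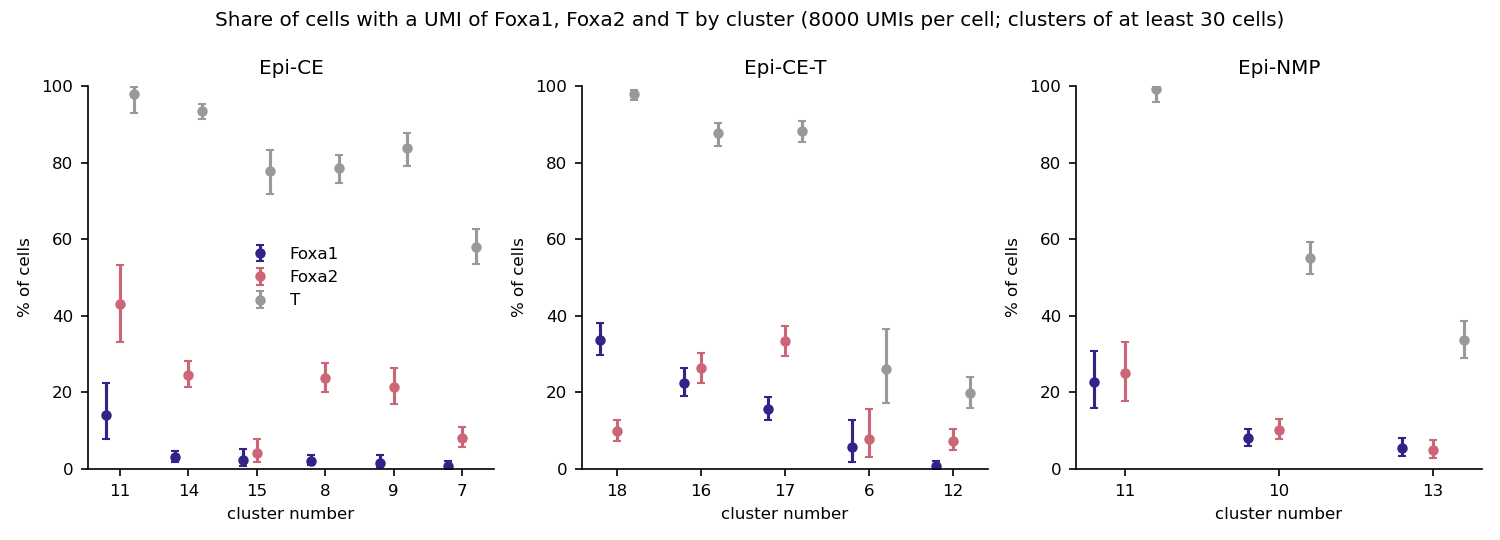
Percentage of cells with a UMI of Foxa1, Foxa2 and T in each cluster of at least 30 cells, per library, at 8000 UMIs per cell with exact binomial 95% intervals; clusters are ordered by Foxa1. In Epi-CE-T, cluster 18 had the highest Foxa1 share (33.8%) with a Foxa2 share of 9.82%, and cluster 17 the highest Foxa2 share (33.3%).

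Cluster 11, with node or notochord markers and led by Klhl6, Pgam2 and Igfbp7, had the highest Foxa1 share in both Epi-CE and Epi-NMP among clusters of at least 30 cells. Foxa1 was found in 14.0% of its 100 Epi-CE cells and in 22.7% of its 132 Epi-NMP cells, and T in 98.0% and 99.2%. In Epi-NMP Foxa1 reached 8.04% in cluster 10 (led by Hoxc10, Hoxb5os and Calml4) and 5.47% in cluster 13 (led by Meox1, Ntm and Mesp1). Dand5, a node or notochord marker used for the Sox17-rich cells, was not compared here. Of the other 6 such markers, Chrd, Nog and Shh were higher in the Foxa1-positive cells of all 3 libraries, with intervals of the ratio above 1. Foxj1 and Pkd1l1 had such an interval in Epi-NMP alone, from 4 UMIs each, and Noto in none; Foxj1 stood at 7.09 against 7.12 CPM in Epi-CE-T. Chrd, a BMP antagonist of the node, stood at 65.4 against 14.0 CPM in Epi-CE, 114.4 against 79.1 CPM in Epi-CE-T and 70 against 14.8 CPM in Epi-NMP. Shh, the notochord's secreted signal, stood at 21.2 against 4.42 CPM in Epi-CE, 134.3 against 82.9 CPM in Epi-CE-T and 20.0 against 7.67 CPM in Epi-NMP. Epcam was lower in Foxa1-positive cells of Epi-CE (132.7 against 222.6 CPM) and of Epi-CE-T (46.1 against 77.1 CPM) and not of Epi-NMP (17.5 against 12.0 CPM).

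The genes most like Foxa1 over the 2109 Epi-CE-T cells were T (Pearson r = 0.349 on log-scaled values), Samd3 (0.349), Gpc3 (0.323), Slit2 (0.32) and Gm15284 (0.304). These correlations are descriptions, since the cells share 1 library and vary in depth. For Sox17 in Epi-CE the closest genes were Irx5 (0.327), Rab15, Flt1, Cited4 and Shisa2 (0.292). For Spink1 in Epi-CE-T they were Vtn (0.323), Spon1, Krt18, Fam46a and Ism1 (0.168).

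The sequence before the start is shown for Foxa1 and for Hhex, described next, the 2 members with an entry among the promoter windows used. Both come from RefSeq (GRCm38.p6), read 5′ to 3′ on the gene's strand, and leave out bases in exons that GENCODE annotates. The Foxa1 stretch (chr12:57546122-57546361, minus strand) precedes the RefSeq start and lies inside the longer gene that GENCODE annotates, outside its exons. The Hhex stretch (chr19:37434591-37434809, plus strand) ends at the base before the GENCODE gene. No sequence was printed for Sox17, Gata4, Gata6 or Spink1.
Foxa1: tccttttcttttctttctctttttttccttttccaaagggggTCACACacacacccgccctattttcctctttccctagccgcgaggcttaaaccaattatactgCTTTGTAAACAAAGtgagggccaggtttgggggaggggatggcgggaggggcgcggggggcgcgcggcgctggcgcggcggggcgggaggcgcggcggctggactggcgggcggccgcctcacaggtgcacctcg
Hhex: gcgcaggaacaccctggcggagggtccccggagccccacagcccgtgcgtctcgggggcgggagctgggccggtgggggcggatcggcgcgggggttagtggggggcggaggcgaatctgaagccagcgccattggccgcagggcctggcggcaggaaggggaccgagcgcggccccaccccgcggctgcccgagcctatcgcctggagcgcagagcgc
Capitals mark every match, on either strand, to any of the motifs searched: a T-box motif spelled TCACAC, a FOX motif spelled TGTTTAC with TGTTTGC as its other form, then GATA, spelled AGATAA, then SOX, spelled ACAAAG, and TCF, spelled CTTTGA. In Foxa1 the first capitals are the T-box match, and the longer run joins a FOX match to a SOX match on each side. Foxa1 held 1 T-box match, 1 FOX match and 2 SOX matches, the last 3 overlapping in 1 run, and Hhex held none. Over the same 240 positions of 32851 RefSeq windows, 11.9% held the T-box letters, 7.06% the FOX letters and 16.0% the SOX letters. The 2 stretches differ in length and in their share of G and C bases. Foxa1 had 240 bases with 62.5% G or C, and Hhex 219 bases with 77.2%. The part of this in the number of matches was not tested. Matches describe letters only, and no binding was measured.

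Hhex varied least between libraries. Its level was 7.62 CPM (6.99 to 8.28) in ES-NMP, 5.69 CPM (5.10 to 6.34) in Epi-CE, 7.13 CPM (6.38 to 7.96) in Epi-CE-T and 7.82 CPM (6.70 to 9.07) in Epi-NMP. Epi-CE lay below the other 3, whose intervals overlapped, and the ratio of Epi-NMP to Epi-CE was 1.37 (1.14 to 1.65). At 8000 UMIs 6.32%, 4.23%, 5.36% and 5.401% of cells held it, against 15.1%, 11.6%, 13.1% and 11.7% unthinned. Unlike Sox17, Foxa1, Gata6 and Spink1 it was frequent in the naive pluripotency cluster (7.44% of 672 cells, against 6.32% of the whole library), and over clusters of at least 60 cells of a library its share ran from 2.97% to 10.2%. It was co-detected with T at 0.888, 0.969, 0.95 and 1.11 times the product. With Foxa2 the ratio was 2.64 in ES-NMP from 5 cells, 0.955 in Epi-CE, 1.04 in Epi-CE-T and 0.492 in Epi-NMP, and without thinning 1.34, 0.974, 1.12 and 0.743. In the Sox17-rich cells Hhex was at 21.2 against 6.89 CPM, 3.09-fold higher (1.90 to 4.74), from 14 of the 43 cells. Its closest genes over Epi-NMP cells were Dusp2 (r = 0.19), P3h4, Ptgs1, Lmo2 and Ints9.

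Gata4 and Gata6 were both low, and they peaked in different libraries. Gata4 had 33 UMIs in ES-NMP (0.461 CPM, 0.317 to 0.648), 72 in Epi-CE (1.23 CPM, 0.96 to 1.55), 5 in Epi-CE-T (0.111 CPM, 0.0361 to 0.259) and 21 in Epi-NMP (0.943 CPM, 0.584 to 1.44). Epi-CE-T was lowest, 11.0-fold below Epi-CE (4.52 to 35.04), and Epi-CE and Epi-NMP overlapped. Epi-CE was 2.66-fold above ES-NMP (1.74 to 4.15) and Epi-NMP 2.05-fold above it (1.13 to 3.64). At 8000 UMIs 6, 20, 0 and 10 cells held Gata4, and 0 of 2109 Epi-CE-T cells allows, by the same limit of 3 counts, up to 0.142% of cells with a UMI at this depth (exact binomial upper bound 0.175%). Without thinning 5 of them held it (0.237%). The naive pluripotency cluster of ES-NMP held it in 2 of 672 cells (0.298%), so that the 0.193% of the whole library was not above the share in that cluster. In Epi-CE 10 of the 20 cells lay in cluster 15 (led by Ptgds, Tbx6 and Snai1), which held 217 of the 2386 cells, and in Epi-NMP 7 of 10 lay in cluster 13.

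Gata4-positive cells were too few at 8000 UMIs to place Foxa2. In Epi-CE 1 of 20 held Foxa2 (5.00%, 0.127% to 24.9%) against 19.8% of negative cells, and in Epi-NMP 0 of 10 did against 10.3%. Without thinning 19 of 65 did in Epi-CE (29.2%, 18.6% to 41.8%) against 34.0%, and 4 of 21 in Epi-NMP (19.0%, 5.45% to 41.9%) against 16.5%. T was found in 14 of 20 and in 5 of 10, at 0.889 and 0.953 times the product, or 1.09 and 1.11 times without thinning. Epithelial genes were lower in the 20 Epi-CE cells, with Krt8 at 137.5 against 292.1 CPM and Epcam at 118.8 against 221.0 CPM, and Tbx6, a paraxial mesoderm factor, was at 43.8 against 9.46 CPM, from 7 UMIs. The closest genes over Epi-CE cells were Pdgfra (r = 0.227), Tdgf1, Epha4, Igfbp4 and Wnt5a.

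Gata6 had 65 UMIs in ES-NMP (0.908 CPM, 0.701 to 1.16), 41 in Epi-CE (0.699 CPM, 0.502 to 0.948), 62 in Epi-CE-T (1.38 CPM, 1.06 to 1.77) and 59 in Epi-NMP (2.65 CPM, 2.02 to 3.42). Epi-NMP was highest, at 3.79-fold Epi-CE (2.503 to 5.79) and 2.92-fold ES-NMP (2.02 to 4.22), and its interval overlapped none of the others. Epi-CE-T was 1.97-fold above Epi-CE (1.31 to 3.00). The gene overlaps 1010001N08Rik on the opposite strand, and the same limit on strand holds as for Sox17. At 8000 UMIs 16, 14, 22 and 24 cells held it, and 0 of the 672 cells of the naive pluripotency cluster did.

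The cells that held Gata6 differed by library. In ES-NMP 43 of its 65 UMIs lay in cluster 5, as did most Sox17, and 4 of the 20 Sox17-positive cells held Gata6, 39.0 times the product, or 17.9 times without thinning. Foxa2 was found in 3 of this library's 16 Gata6-positive cells (18.8%, 4.05% to 45.6%) against 0.871% of negative cells, or in 6 of 36 against 2.05% without thinning. In Epi-NMP 44 of 59 UMIs lay in cluster 13, and 1 of 24 positive cells held Foxa2 and 10 held T, at 0.41 and 0.794 times the product. Cldn6 was higher in Gata6-positive cells of ES-NMP (132.8 against 51.4 CPM), Epi-CE (169.6 against 77.8 CPM) and Epi-NMP (67.7 against 15.5 CPM) and not of Epi-CE-T (11.4 against 20.7 CPM, from 2 UMIs). In Epi-NMP the closest genes were Fam81a (r = 0.233), Foxq1, Ntm, Aldh1a2 and Igfbp4. Among 178 genes with 100 or more thinned UMIs in these 24 cells, Tmsb4x had the largest ratio to the other cells, at 1.83, and among 33 such genes in the 9 Sox17-positive Epi-CE-T cells Fth1 had, at 1.63.

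Few cells held several members. At 8000 UMIs 11 ES-NMP cells, 15 Epi-CE cells, 45 Epi-CE-T cells and 11 Epi-NMP cells held at least 2 of the 6, and no cell held more than 4. Foxa1 and Gata6 were found together in 0 of 65 Foxa1-positive Epi-CE cells, 5 of 388 in Epi-CE-T and 2 of 100 in Epi-NMP, and Foxa1 and Spink1 in 14 of 388 in Epi-CE-T, 0.711 times the product. Without thinning both of these pairs changed: Foxa1 and Spink1 shared 98 of 727 Foxa1-positive Epi-CE-T cells (13.5%, 11.1% to 16.2%, against 8.47% of the others), 1.32 times the product, and Foxa1 and Gata6 shared 5 of 173 in Epi-CE, 1.97 times it. No direction is read from either pair.

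Lists of related genes give the setting. They overlap, so some changes count in more than 1 list: Cdx2, Krt18, Shh and Sox9 are in the gut and node lists. Foxa2 and Nodal are in the streak and node lists. Of 10 measured definitive endoderm and streak genes, 1 was at least 1.5-fold higher and 8 lower in Epi-NMP than in Epi-CE. The list's median log2 ratio was -1.05, against -0.01 over all genes. Tdgf1, a Nodal co-receptor gene, had 2021 UMIs in Epi-CE and 0 in Epi-NMP, at least 256-fold lower, Otx2 was 28.8-fold lower and Cxcr4, a chemokine receptor of migrating endoderm, was 15.8-fold higher. Of 12 gut epithelium genes 3 were higher and 8 lower, including the junction genes Cldn4 (23.3-fold lower), Cdh1 (22.0-fold) and Epcam (17.6-fold). Of 14 node and notochord genes 4 rose past that fold and 8 fell past it, including Foxj1 (11.9-fold lower), Nodal (5.80-fold) and Cfap126 (5.52-fold). Of 12 extraembryonic endoderm genes 4 were higher and 5 lower, led by Fst (36.8-fold lower), Lama1 (4.63-fold higher) and Rhox5 (2.41-fold lower).

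In Epi-CE-T over Epi-CE, 4 of 10 definitive endoderm and streak genes lay above that fold and 5 below it. The list's median log2 ratio was -1.05, against 0.04 over all genes. Mixl1, a streak homeobox gene, was 29.0-fold lower and Tdgf1 13.4-fold lower, while Cer1 was 5.44-fold higher. Of 14 node and notochord genes 6 were higher and 3 lower: Shh was 17.8-fold higher, Sox9 6.51-fold higher and Cdx2, a caudal factor that this list shares with the gut list, 26.1-fold lower. Of 13 gut genes 2 were higher and 7 lower, Cldn4 10.4-fold. Of 13 extraembryonic endoderm genes 4 were higher and 5 lower, with Fst 14.5-fold lower, Rhox5 4.42-fold lower and Col4a2 3.14-fold higher.

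Smaller lists held few measured genes. In the cardiac list, 4 were measured in each comparison: Mesp1 was 8.81-fold and Mef2c 2.12-fold higher and Isl1 3.44-fold lower in Epi-NMP than in Epi-CE, and Mef2c and Bmp4 were 1.73-fold and 1.62-fold higher and Isl1 8.34-fold lower in Epi-CE-T than in Epi-CE. In the blood and endothelium list, Lmo2 was 3.04-fold higher in Epi-NMP and 2.39-fold lower in Epi-CE-T, and Etv2 had a ratio of 1.09 and was 1.98-fold lower. Among family relatives, Gata3 was 4.10-fold higher and Foxa3 2.49-fold lower in Epi-CE-T than in Epi-CE.

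Against ES-NMP, 11 of 14 measured node and notochord genes were higher and 1 lower in Epi-CE (median log2 2.91, 0.03 over all genes), and 6 of 11 were higher and 2 lower in Epi-NMP. Of 10 definitive endoderm and streak genes 3 were higher and 2 lower in Epi-CE, and 3 were higher and 6 lower in Epi-NMP. Of 14 gut genes 7 were higher and 4 lower in Epi-CE, and 4 were higher and 9 lower in Epi-NMP. Beside these, 21.1% of all genes were higher and 16.2% lower in Epi-CE than in ES-NMP, and 16.0% and 18.4% in Epi-NMP. All 4 comparisons share libraries with another.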

How the data were processed

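The deposited count table holds UMI counts per gene and cell, and a cell table gives each cell's library and whether the submitters used it. Cell Ranger 1.3.1, Seurat 2.0 and mm10 are named in the submitters' processing notes, with no role or order given. Cells marked as used were kept, and no doublets were removed; leaving out the deepest 10% of cells is an alternative. Counts were summed per library over cells (CPM), a fold of 1.5 was called among genes whose UMIs in the pair of libraries came to 50 or more, and a gene at 0 was set to 3 counts. Shares and co-detection used cells thinned to 8000 UMIs (seed 1). Clusters (scanpy 1.11.5, 2000 variable genes, 30 components, 15 neighbours, Leiden resolution 1.0) left out the 6 members, Foxa2 and T, and clusters were described by fixed markers. Scripts ran in Python 3.11.15 with scipy 1.17.1 and were tested on simulated data; R 4.3.3 with edgeR 4.0.16 and DESeq2 1.42.0 gave scaling factors only. Per the file headers, genes are listed by symbol. Gene positions come from GENCODE M21 (GRCm38). Named genes were the members, Foxa2 and T, the 5 genes most correlated with each member in its highest library (among genes in at least 2% of cells), the 3 list genes with the largest ratio per list in Epi-CE-T over Epi-CE and Epi-NMP over Epi-CE, genes leading the member-positive cells, and genes leading clusters with at least 10% of a member's positive cells. Others, named for the Sox17-rich cells and as markers, were chosen after values were seen. The members and lists were chosen with earlier results of these data known. Of the definitive endoderm markers, 1 is not reported here.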

Additional observations from a re-analysis of the deposited data

Results flagged for a closer look

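The barcodes that the submitters did not mark as used were left out of every comparison, and some members exceeded 3 UMIs in them. In Epi-CE-T their Foxa1 level was 26.3 CPM against 25.3 in the used cells, Spink1 was at 10.3 against 14.9 CPM, and Hhex was at 3.76 against 7.13 CPM. Sox17 was at 3.76 CPM there, from 4 UMIs in 1 barcode. In Epi-NMP, where 1513 barcodes were not used, Sox17 was at 2.48 CPM (1.49 to 3.87) against 1.08 in the used cells, Foxa1 at 6.65 against 11.3 CPM and Gata4 at 0.652 against 0.943 CPM. Gata6 was at 2.22 against 2.65 CPM, Hhex at 6.91 against 7.82 CPM and Spink1 at 3.78 against 3.19 CPM in the same barcodes. In ES-NMP Gata6 was at 5.64 against 0.908 CPM, from 8 UMIs in 1 barcode, and Hhex was at 7.75 against 7.62 CPM. In Epi-CE Hhex was at 4.80 against 5.69 CPM. Unused barcodes had a median of 4720 to 7806 UMIs by library. The part of depth in these values was not tested.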

How the results depend on the processing

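No paired analysis was possible because each population has a single library. No member level ratio past 1.5-fold changed direction under an alternative (another scaling, per-cell means, without the deepest 10% of cells or the richest cell). Smaller ratios did: Spink1 in Epi-NMP over ES-NMP went from 1.08 to 0.438 with per-cell means, 0.187 without the deepest 10% and 0.449 without the richest cell, Spink1 in Epi-CE over ES-NMP went from 1.14 to 0.829 and 0.796 under the first 2 of these, and Hhex in Epi-NMP over ES-NMP and Spink1 in Epi-NMP over Epi-CE crossed 1 by small amounts. The shift of the median over all genes stayed under 0.1 on the log2 scale. With no minimum of UMIs, more of the 84 list genes pass the 1.5-fold rule. In Epi-CE over ES-NMP 25 were lower (with the minimum 15 of 53 measured), and in Epi-NMP over ES-NMP 30 were higher (16 of 49). In Epi-NMP over Epi-CE 23 were higher (12 of 47), and in Epi-CE-T over Epi-CE 28 were higher (17 of 50). Members lower numbered 2 in place of 1 in Epi-NMP over ES-NMP, and 2 in place of 1 in Epi-NMP over Epi-CE, with Spink1 added, under per-cell means, without the deepest 10% of cells and without the richest cell (an alternative chosen after seeing the data).

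Co-detection ratios rest on few cells. For Sox17 with Spink1, ES-NMP gave 170 with all barcodes at 4000 UMIs, 223 at 4000 UMIs and 165 without the deepest 10%, Epi-CE gave 85.2 without the deepest 10%, and Epi-NMP gave 24.2 with all barcodes and 278 at 4000 UMIs. For Sox17 with Foxa2, requiring 2 UMIs of each gene gave 59.9 in ES-NMP and 2.62 in Epi-CE, and 4000 UMIs gave 0 in Epi-NMP. For Sox17 with T, 4000 UMIs gave 0 in ES-NMP, 0.394 in Epi-CE and 0 in Epi-NMP, and 2 UMIs gave 0.473 in Epi-CE. For Foxa1 with Foxa2, all barcodes at 4000 UMIs gave 3.01 in Epi-CE and 0.596 in Epi-CE-T, and Epi-NMP gave 1.54 without the deepest 10%. For Foxa1 with T, Epi-CE gave 1.33 with all barcodes and 1.35 at 4000 UMIs; Epi-CE-T gave 1.36 and 1.32, 1.17 unthinned and 1.29 at 2 UMIs; Epi-NMP gave 1.38 unthinned, 1.80 at 4000 UMIs and 1.90 at 2 UMIs.

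The ratio went to 0, with no double-positive cell left, for Sox17 with Foxa1 and Foxa1 with Spink1 in ES-NMP and Gata6 with Spink1 in Epi-NMP (both settings at 4000 UMIs), for Gata6 with Spink1 and Gata6 with Foxa2 in ES-NMP (all barcodes), and for Sox17 with Hhex in Epi-CE and Sox17 with Gata6 in Epi-NMP (4000 UMIs). Fewer UMIs per cell leave fewer positive cells by construction, and for the other changes the cause was not tested. Leiden resolution 0.5 moved 7 of 23 cluster shares. Single libraries, few Sox17 cells and unknown strand use limit all results.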

Other observations

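One Epi-NMP cell, chosen after its value was seen, held 21 of the 174 Hhex UMIs of its library. It also held 38 UMIs of Lmo2, 8 of Tal1, 4 of Lyl1, 3 of Gata2 and 11 of Bmp4. The first 4 of these are genes of blood and endothelial precursors. Of other such genes it held 1 UMI of Kdr and none of Etv2, Pecam1, Cdh5, Fli1, Tek or Gata1. It held none of Sox17, Foxa1, Foxa2 or Epcam. Among the other 1110 Epi-NMP cells Tal1 was found in 5 and Lmo2 in 540, with up to 40 Lmo2 UMIs in a cell. The total of the Hhex-rich cell was 29589 UMIs, and without it the Hhex level of Epi-NMP was 6.88 CPM.

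The clusters in which some Sox17-rich cells lay were mostly made of another library's cells. Cluster 17 held 570 Epi-CE-T cells and 13 Epi-CE cells, of which 3 were Sox17-rich, and cluster 5 held 138 ES-NMP cells and 15 Epi-CE cells, of which 8 were. These values are given with no explanation.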
